A study of Homo sapiens with 2 samples.

Results

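The thymosins, profilin, cofilin, cyclase-associated protein, the ARP2/3 complex and the essential light chain of non-muscle myosin act on actin, and 10 genes of this group were followed: TMSB10, TMSB4X, PFN1, CFL1, CAP1, ARPC1B, ARPC2, ARPC3, ARPC5 and MYL6. They were chosen by name, as rows of the count tables whose Ensembl identifier carries one of these symbols in GENCODE release 44. All 10 were found, among 58735 listed genes, and all 10 passed the filter on low values used below. The RNA came from MCF10a-Snail-ER cells, a derivative of an immortalized human breast epithelial line that stably carries the repressor Snail fused to the estrogen receptor. All cells had been given 100 nM tamoxifen for 1 day to activate the fusion protein and begin an epithelial-to-mesenchymal transition. Polyadenylated RNA was sequenced in 2 ways, with 1 library each. In Nanopore direct RNA sequencing on a MinION, native RNA strands are read through a pore. For the Illumina library, made with a TruSeq stranded mRNA kit, RNA was fragmented and copied to cDNA before reading. No untreated library was analysed here, so the values describe these genes in treated cells and how the 2 libraries measured them, and not the effect of tamoxifen.

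Actin cycles between single subunits and filaments. The beta-thymosins hold subunits in reserve, profilin passes them to growing filament ends, cofilin severs old filaments, and CAP1 helps cofilin and reloads the freed subunits. The ARP2/3 complex starts new filaments as branches on old ones, which pushes out the leading edge of a moving cell. MYL6 encodes the essential light chain that stiffens the lever arm of non-muscle myosin II, the motor that contracts actin bundles. Most of these mRNAs are short and abundant in cultured epithelial cells.

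Depth differed widely. All Nanopore counts summed to 403235 and all Illumina counts to 191741714. On the scale of counts per 1000000 of the total (CPM), a single Nanopore count is worth 2.48 and a single Illumina count 0.00522. All 7 basal breast epithelial markers looked at were detected in both libraries, summing to 3554 CPM by Nanopore and 3565 CPM by Illumina. Of 6 luminal markers 5 were detected in each library, and ELF5 was listed at 0 in both. Of 8 mesenchymal markers Nanopore detected 4 and Illumina 8. They summed to 1818 CPM by Nanopore and 2125 CPM by Illumina, most of it from VIM (1736 and 1828 CPM). The 5 immune markers summed to 44.6 CPM by Nanopore and 56.1 CPM by Illumina. Most of this sum came from CD68 (32.2 CPM by Nanopore and 45.1 by Illumina) and CD14 (12.4 and 11.0 CPM). CD3E was at 0 in both, and PTPRC, the pan-leukocyte marker, was at 0 counts by Nanopore and 2 by Illumina. With 1 library per method there is no spread between replicates. All intervals are 95% exact intervals (Poisson for a level, Clopper-Pearson for a share or a ratio of counts), and they cover counting error only. For Illumina counts they may be too narrow even for that, since amplified reads are not independent molecules. A difference is named when it is at least 2-fold, and no p-value is given.

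Together the 10 genes held 2919 Nanopore counts, 0.724% of that library (0.698 to 0.751%), and 1691672 Illumina counts, 0.882% (0.881 to 0.884%). TMSB10 alone made up 38.5% of the 10-gene sum of counts by Nanopore (36.7 to 40.3%) and 42.4% by Illumina (42.3 to 42.5%). With Illumina counts divided by canonical transcript length, as described below, its Illumina share was 59.9%. On the CPM scale the genes were measured much alike. The median log2 ratio of Nanopore over Illumina CPM, each with 1 CPM added, was -0.21 over the 10 genes and -0.42 over the 12414 genes that averaged 5 CPM or more between the libraries, here called tested. Of the 10, 1 gene was at least 2-fold higher by Illumina, where 30.2% of all tested genes were, and 0 were at least 2-fold higher by Nanopore, where 19.2% of all tested genes were. The ratios ran from -1.02 for CAP1 to 0.43 for PFN1. Across the 10 genes the CPM values of the 2 libraries had a Spearman's rho of 0.891, a description over genes that share both libraries. The header tag of the Nanopore table holds the letters "talc", which is also the name of a tool that corrects long reads with short reads. Whether the Nanopore reads were so corrected is not given in the sources used here, and if they were, the 2 libraries are not independent measurements.

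**Figure D1:**
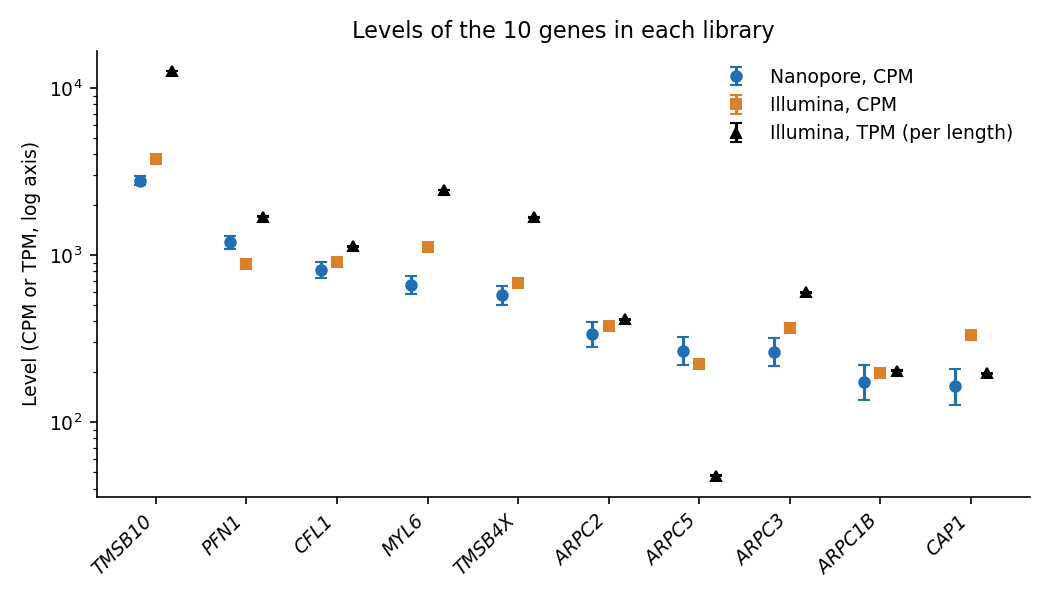
Level of each of the 10 genes in the Nanopore library (circles, CPM) and in the Illumina library (squares, CPM, and triangles, TPM, which divides by canonical transcript length), on a log axis with 95% exact Poisson intervals of the counts. TMSB10 is the highest gene on all 3 scales, and ARPC5 has the lowest TPM, 47.7, although its CPM values are 267.8 and 223.7.

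The beta-thymosins are the smallest proteins of the set. TMSB10 (ENSG00000034510, chromosome 2, 84905656 to 84906671, plus strand, hg38) has 3 exons in a transcript of 461 bases. TMSB4X (ENSG00000205542, chromosome X, 12975110 to 12977227, plus strand) has a canonical transcript of 622 bases. Their coding sequences, read from the GENCODE 44 transcripts, have the same length of 135 bases and are printed with the stop codon. They are shown with 2 intronless copies of TMSB4X, the TMSB4XP8 locus (chromosome 4, 90838903 to 90839037, minus strand) and the TMSB4XP6 locus (chromosome 20, 50840615 to 50840749, minus strand), because counts assigned to these loci enter the results below. Capitals mark bases that differ from TMSB4X.
TMSB4X: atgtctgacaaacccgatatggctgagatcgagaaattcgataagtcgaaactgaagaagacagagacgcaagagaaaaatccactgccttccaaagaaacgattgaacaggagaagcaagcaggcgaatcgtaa
TMSB10: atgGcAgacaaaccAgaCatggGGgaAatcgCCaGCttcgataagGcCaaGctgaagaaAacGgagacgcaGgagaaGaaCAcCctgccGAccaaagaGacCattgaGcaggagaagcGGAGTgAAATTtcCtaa
TMSB4XP8: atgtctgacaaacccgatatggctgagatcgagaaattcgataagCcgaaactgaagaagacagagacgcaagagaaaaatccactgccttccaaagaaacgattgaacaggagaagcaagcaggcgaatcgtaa
TMSB4XP6: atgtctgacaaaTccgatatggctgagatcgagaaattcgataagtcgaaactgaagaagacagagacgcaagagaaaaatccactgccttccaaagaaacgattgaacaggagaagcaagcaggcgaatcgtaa

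The 2 thymosin coding sequences differ at 37 of 135 positions, an identity of 72.6%, and share no exact run longer than 10 bases. TMSB4XP8 differs from TMSB4X by the single substitution T46C and TMSB4XP6 by C13T, counted from 1 at the A of the start codon.

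TMSB10 had 1124 counts by Nanopore and 717678 by Illumina. This was 2787 CPM (2627 to 2955) and 3743 CPM (3734 to 3752), and the gene ranked 29 by Nanopore counts and 13 by Illumina counts among all genes. Its log2 ratio was -0.43 (-0.51 to -0.34), with an interval that lies below equality and within 2-fold. For TMSB4X the libraries held 231 (Nanopore) and 129532 (Illumina) counts, which is 572.9 CPM (501.4 to 651.7) and 675.6 CPM (671.9 to 679.2). Its log2 ratio was -0.24 (-0.43 to -0.05). Both thymosins were thus lower by Nanopore, by 1.34-fold and 1.18-fold, short of the 2-fold at which a difference is named. The median log2 ratio over all tested genes was itself -0.42. Both thymosins kept this direction under each of the 9 other scalings, pseudocounts and length corrections tried.

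PFN1 (ENSG00000108518, chromosome 17, 4945652 to 4949061, minus strand) encodes profilin, which binds actin subunits and speeds their exchange of nucleotide. It had 481 Nanopore counts, 1193 CPM (1089 to 1304), and 169598 Illumina counts, 884.5 CPM (880.3 to 888.7). PFN1 was the only one of the 10 genes whose interval lay wholly above equality on the CPM scale, with a log2 ratio of 0.43 (0.30 to 0.56). The direction of PFN1 turned when Illumina counts were divided by transcript length, to -0.51. CFL1 (ENSG00000172757, chromosome 11, 65823022 to 65862026, minus strand) encodes cofilin. It had 330 Nanopore counts, 818.4 CPM (732.5 to 911.6), and 173570 Illumina counts, 905.2 CPM (901.0 to 909.5). Its log2 ratio of -0.15 (-0.31 to 0.01) did not differ from equality beyond counting error.

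CAP1 (ENSG00000131236, chromosome 1, 40040233 to 40072649, plus strand) has 13 exons in its canonical transcript of 2626 bases. It had 66 Nanopore counts, 163.7 CPM (126.6 to 208.2), and 63719 Illumina counts, 332.3 CPM (329.7 to 334.9). Its log2 ratio of -1.02 (-1.39 to -0.67) made it the 1 gene past 2-fold. The value sits at that limit, and it was -0.93 with TMM scaling, -0.89 with median-ratio scaling and -0.26 when Illumina counts were divided by canonical transcript length.

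The ARP2/3 complex is built of several kinds of subunit, of which ACTR2 and ACTR3 are the actin-like pair that seeds the branch. ARPC2 (ENSG00000163466, chromosome 2, 218217141 to 218254356, plus strand), whose product forms the structural core with ARPC4, had 136 Nanopore counts and 72157 Illumina counts. These were 337.3 CPM (283.0 to 399.0) and 376.3 CPM (373.6 to 379.1), a log2 ratio of -0.16 (-0.41 to 0.08). ARPC3 (ENSG00000111229, chromosome 12, 110434823 to 110450422, minus strand), a small subunit that contacts ACTR3, had 106 and 70215 counts. Its 262.9 CPM (215.2 to 317.9) by Nanopore lay below its 366.2 CPM (363.5 to 368.9) by Illumina, with a log2 ratio of -0.48 (-0.77 to -0.20). So ARPC2 was measured alike within counting error, and ARPC3 was lower by Nanopore by less than 2-fold.

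ARPC1B (ENSG00000130429, chromosome 7, 99374249 to 99394816, plus strand) encodes the propeller-shaped subunit that contacts activators of the complex. Its 70 Nanopore counts gave 173.6 CPM (135.3 to 219.3) and its 37934 Illumina counts 197.8 CPM (195.9 to 199.8), a log2 ratio of -0.19 (-0.55 to 0.15). ARPC5 (ENSG00000162704, chromosome 1, 183620846 to 183635783, minus strand), a peripheral subunit, had 108 and 42887 counts, or 267.8 CPM (219.7 to 323.4) and 223.7 CPM (221.6 to 225.8). Its log2 ratio was 0.26 (-0.03 to 0.53). Neither gene differed between the libraries beyond counting error on this scale.

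MYL6 (ENSG00000092841, chromosome 12, 56158346 to 56163496, plus strand) had 267 Nanopore counts, 662.1 CPM (585.1 to 746.5), and 214382 Illumina counts, 1118 CPM (1113 to 1123). Its log2 ratio of -0.75 (-0.93 to -0.58) was the lowest of the 10 after that of CAP1. By rank it stood at 237 among all genes by Nanopore counts and at 115 by Illumina counts.

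Levels of different genes can be set against each other only per length. A Nanopore read stands for 1 RNA strand whatever its length, so Nanopore CPM was used as it is. Whether a read was counted for more than 1 gene is not known, as described below. If some were, the total behind CPM holds them more than once. Illumina counts, which grow with the number of fragments a transcript yields, were divided by canonical transcript length and scaled to 1000000 (TPM). By Nanopore CPM the order was TMSB10, PFN1, CFL1, MYL6, TMSB4X, ARPC2, ARPC5, ARPC3, ARPC1B and CAP1. Counting intervals overlapped between CFL1 and MYL6, between MYL6 and TMSB4X, and between each pair of neighbours from ARPC2 to CAP1, so their order is not resolved. By Illumina TPM the order was TMSB10 (12583), MYL6 (2447), PFN1 (1699), TMSB4X (1683), CFL1 (1127), ARPC3 (599.9), ARPC2 (413.6), ARPC1B (202.9), CAP1 (196.1) and ARPC5 (47.7). Only PFN1 and TMSB4X had overlapping counting intervals there, but the order also changed with the length chosen. With the union of annotated exons, MYL6 (684.5) stood below PFN1 (1498) and TMSB4X (1074). With mean transcript length, CFL1 (1138) stood above TMSB4X (904.5). CAP1 stood above ARPC1B with both of these lengths. TMSB10 stood at rank 4 among all genes by TPM.

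On this per-length scale 4 of the 5 shortest mRNAs of the set, all but PFN1, stood at least 2-fold lower by Nanopore. The log2 ratio of Nanopore CPM over Illumina TPM, each with 1 added, was -2.17 for TMSB10 (-2.26 to -2.09), -1.88 for MYL6 (-2.06 to -1.71), -1.55 for TMSB4X (-1.75 to -1.37) and -1.19 for ARPC3 (-1.48 to -0.92). These 4 of 10 genes were at least 2-fold higher by Illumina, against 11.1% of the 12350 tested genes with a length. PFN1, CFL1, CAP1, ARPC1B and ARPC2 lay between -0.51 and -0.22. ARPC5, at 2.46 (2.20 to 2.76), was the 1 gene at least 2-fold higher by Nanopore, against 34.8% of those tested genes. The median over the 10 genes was -0.49, and over all tested genes 0.48. Across the 10 genes this ratio and transcript length had a Spearman's rho of 0.964, which is a description only, since length enters the ratio. On the CPM scale the rho was 0.200.

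Part of this position was shared by other short mRNAs. Of tested protein-coding genes with transcripts of up to 500 bases, as for TMSB10, 48.3% were at least 2-fold higher by Illumina per length. The share was 40.3% at 501 to 700 bases, as for TMSB4X, and 25.4% at 701 to 1000, as for MYL6 and ARPC3. Each gene was set beside the tested protein-coding genes whose canonical transcript was within 1.25-fold of its length. For MYL6, the median per-length ratio of 391 such genes was -0.63, and 6.91% of them lay below MYL6. For TMSB10, the median of 160 such genes was -0.81, and 8.75% lay below it. ARPC3 and TMSB4X had 16.8% and 16.9% of such genes below them. PFN1 lay in the middle of its own length class, with 50.6% of 508 genes below it, as did ARPC1B (48.6% of 1346) and ARPC2 (46.8% of 1200). ARPC5 stood high, with 93.9% of 1464 genes below it.

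**Figure D2:**
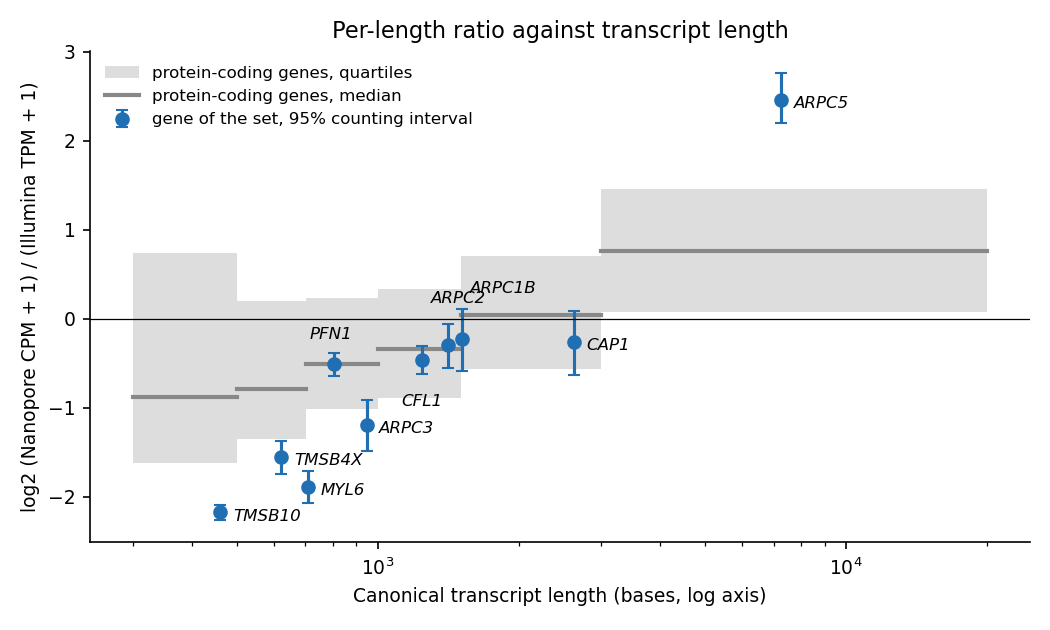
Log2 ratio of Nanopore CPM over Illumina TPM (1 added to each) against canonical transcript length in bases on a log axis, for the 10 genes (circles, 95% exact counting intervals) and for tested protein-coding genes in 6 length groups (line, median; band, quartiles; the first and last groups are open-ended). TMSB10, TMSB4X, MYL6 and ARPC3 lie at -1.19 or lower, and ARPC5 lies at 2.46.

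The value of a per-length ratio rests on the length chosen. ARPC5 has a canonical transcript of 7266 bases, and the mean over its annotated transcripts is 2993 bases. Division by that mean gave a ratio of 1.57, which was still past 2-fold. MYL6 moved further, from -1.88 with its canonical transcript of 708 bases to -0.05 with the union of all its annotated exons, 4424 bases, and ARPC3 moved from -1.19 to -0.32. TMSB10 has 1 annotated transcript, yet its ratio ran from -2.98 with union length to -1.81 with mean length, because TPM is scaled by the sum over all genes. With union length only TMSB10 of the 10 was at least 2-fold higher by Illumina (12.7% of all 12414 tested genes). ARPC5 (2.22) and ARPC2 (1.10) were then at least 2-fold higher by Nanopore (33.6%). CFL1 had ratios of -0.46, 0.97 and -0.47 for canonical, union and mean length, so its direction turned with union length.

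Of the 10 genes, 6 share exon bases with another annotated gene, and the Nanopore counts of several of these neighbours were close to those of the gene of the set. TMSB10 lies wholly within the body of TRABD2A, on the opposite strand, and the exons of the pair share 9 bases. TRABD2A, which encodes a metalloprotease of the Wnt pathway, had 1126 Nanopore counts against 1124 for TMSB10. By Illumina it had 3926 counts, 0.547% of the count of TMSB10. SNX32, a sorting nexin gene on the strand opposite to CFL1, lies wholly within the body of CFL1, and the exons of the pair share 357 bases. The body of SNX32 holds 1161 of the 1245 bases of the CFL1 transcript. SNX32 had 327 Nanopore counts against 330 for CFL1, and 865 Illumina counts against 173570.

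Other neighbours hold the start of the transcript or, for ARPC3, all but its start. ENO3, the muscle enolase gene, is on the strand opposite to PFN1, and its body holds bases 1 to 268 of the 807 bases of the PFN1 transcript. ENO3 had 425 Nanopore counts, 88.4% of those of PFN1, and 713 Illumina counts, 0.420% of them. MUS81, an endonuclease gene opposite to CFL1, holds bases 1 to 84 of the CFL1 transcript and had 231 Nanopore counts, 70.0% of those of CFL1, against 2.81% by Illumina. MYL6B, the paralog just upstream of MYL6 on the same strand, holds bases 1 to 135 of the 708 bases of MYL6. It had 243 Nanopore counts, 91.0% of those of MYL6, and 11489 Illumina counts, 5.36%. The lncRNA gene ENSG00000258210, on the strand of ARPC3, holds bases 87 to 946 of its 946 bases and had 111 Nanopore counts against 106 for ARPC3, and 1241 Illumina counts, 1.77%.

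SMARCC2, a chromatin remodelling gene, overlaps exons of MYL6 that are not in its canonical transcript, and it holds 0 bases of that transcript. It had 5 Nanopore counts, 1.87% of those of MYL6, and 10840 Illumina counts. PDAP1, opposite to the end of ARPC1B, had 114 Nanopore and 47757 Illumina counts, both above those of ARPC1B. ENSG00000284292, a protein-coding gene that spans ARPC1A and ARPC1B on their strand, had 125 Nanopore counts, where ARPC1A and ARPC1B together had 126. By Illumina it had 50911 counts, 70.8% of their sum. In all, 9 genes share exon bases with one of the 10. Of these, 6 were at least 2-fold higher by Nanopore (19.2% of all tested genes), with log2 CPM ratios from 3.31 for MYL6B to 7.80 for ENO3. SMARCC2 (-2.10) was the 1 at least 2-fold higher by Illumina (30.2% of all tested genes), and 2 were within 2-fold.

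**Figure D3:**
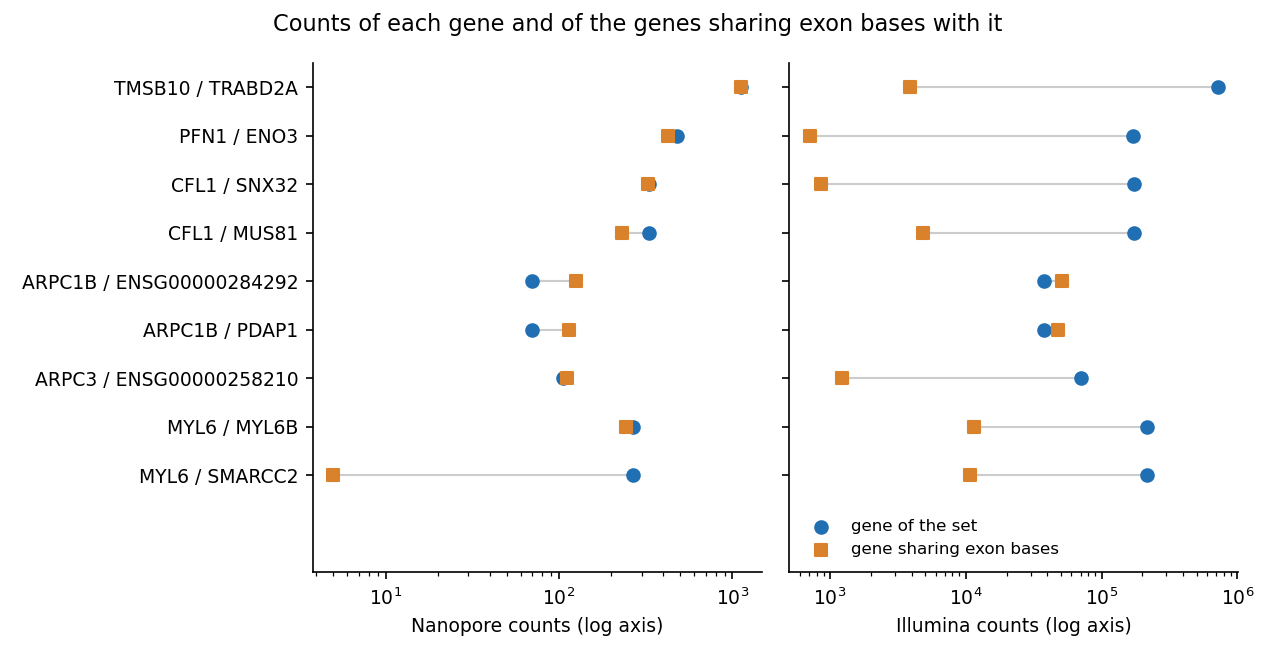
Counts of a gene of the set (circles) and of each annotated gene that shares exon bases with it (squares), by Nanopore (left) and Illumina (right), on log axes; each row is 1 pair. By Nanopore the markers nearly coincide for TMSB10 with TRABD2A, CFL1 with SNX32 and ARPC3 with ENSG00000258210, while by Illumina the neighbour is far lower in these pairs.

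TMSB4X, CAP1, ARPC2 and ARPC5 overlap no other gene. Their median log2 CPM ratio was -0.20, and that of the other 6 genes was -0.31. Whether a read was counted for more than 1 gene, and whether strand was used, is not given in the sources used here, and the part of such counting in these values was not tested. Without that information, reads of a neighbour and of its partner in the set cannot be told apart.

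Pseudogene copies of these mRNAs held Illumina counts and almost no Nanopore counts. There are 39 listed genes named as pseudogenes of the 10. Together they held 5 Nanopore counts, 0.171% of those of the 10 genes, and 15028 Illumina counts, 0.888%. Of the 5 Nanopore counts, 3 fell on a copy of CFL1 that had 1 Illumina count, and 1 on a copy of TMSB10 that had 5. TMSB4XP8 had the most, with 8523 Illumina counts and 1 Nanopore count. That is 44.5 CPM by Illumina, above the upper limit of 13.8 CPM for 1 Nanopore count, and at the same share the Nanopore library would have held 17.9 counts. The Illumina count equals 6.58% of that of TMSB4X. TMSB4XP6, which also differs from TMSB4X at 1 position of the coding sequence, had 76 Illumina counts and 0 by Nanopore, and TMSB4XP1, with 2 differences, had 184 and 0.

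MYL6P5 had 2591 Illumina counts, ARPC3P3 2221, CAP1P1 311, CAP1P2 281, TMSB4XP4 239, ARPC3P1 190 and PFN1P1 138, and each had 0 Nanopore counts. A count of 0 allows a share of up to 7.44 CPM (3 counts of the Nanopore library), and the upper end of the 95% exact interval used above is 9.15 CPM. MYL6P5 and ARPC3P3 were at 13.5 and 11.6 CPM by Illumina, above both limits, and the other 5 were below both. The copies differ in how far they match their parent. The longest exact run shared with the canonical transcript was 89 bases for TMSB4XP8, 60 for MYL6P5 and 174 for ARPC3P3. Of the 50-base words of the canonical transcript, 28.1% occurred in a transcript of another gene for TMSB4X and 28.5% for ARPC3. The share was 82.0% for ARPC1B, from ENSG00000284292 alone, and 0% for ARPC2. Adding the copies to their parents moved the log2 ratio of TMSB4X from -0.24 to -0.33 and that of ARPC3 from -0.48 to -0.53, and turned no direction.

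The genes listed beside the 10 filled in the complex and its partners, in 5 lists of 61 genes, of which 58 passed the filter. On the CPM scale 21 of the 58 were at least 2-fold higher by Illumina (30.2% of all tested genes) and 2 by Nanopore (19.2%), with a median log2 ratio of -0.59. Per length this split was 4 (11.1% of all tested genes) and 21 (34.8%, close to the share of the list), and the median 0.40. Of the 6 other ARP2/3 subunit genes, ARPC4 and ACTR2 were past 2-fold, both higher by Illumina, a share near the 30.2% of all tested genes. ARPC4, the core partner of ARPC2, had only 19 counts by Nanopore and 40688 by Illumina, and its log2 ratio was -2.15 (-2.90 to -1.53). The overlapping gene ARPC4-TTLL3 also had 19 Nanopore counts, with 18907 by Illumina. ACTR2 had 71 and 81803 counts, a ratio of -1.27 (-1.63 to -0.94).

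Set side by side, the genes of the complex were not equally abundant. By Nanopore CPM, and leaving out ACTR3B with its 3 counts, the 9 subunit genes spanned 7.16-fold, from 47.1 CPM for ARPC4 to 337.3 CPM for ARPC2. By Illumina TPM with canonical length they spanned 15.0-fold, from 40.1 for ARPC5L to 599.9 for ARPC3. With union length the range was narrower, from 48.7 for ARPC5L to 327.6 for ARPC3. ARPC4 was the lowest of the 9 by Nanopore. By Illumina its 229.5 TPM with canonical length stood above ACTR2 (174.8), ARPC1A (173.7) and ACTR3 (55.9). With union length ARPC4 (220.5) stood below ACTR2 (285.9) and ARPC1A (232.5) and above ACTR3 (53.9), so its place by Illumina rests on the length chosen. ARPC1A and ARPC1B together gave 312.5 CPM by Nanopore and ARPC5 with ARPC5L 332.3 CPM, beside the 337.3 CPM of ARPC2. ACTR3 with ACTR3B gave 126.5 CPM.

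**Figure D4:**
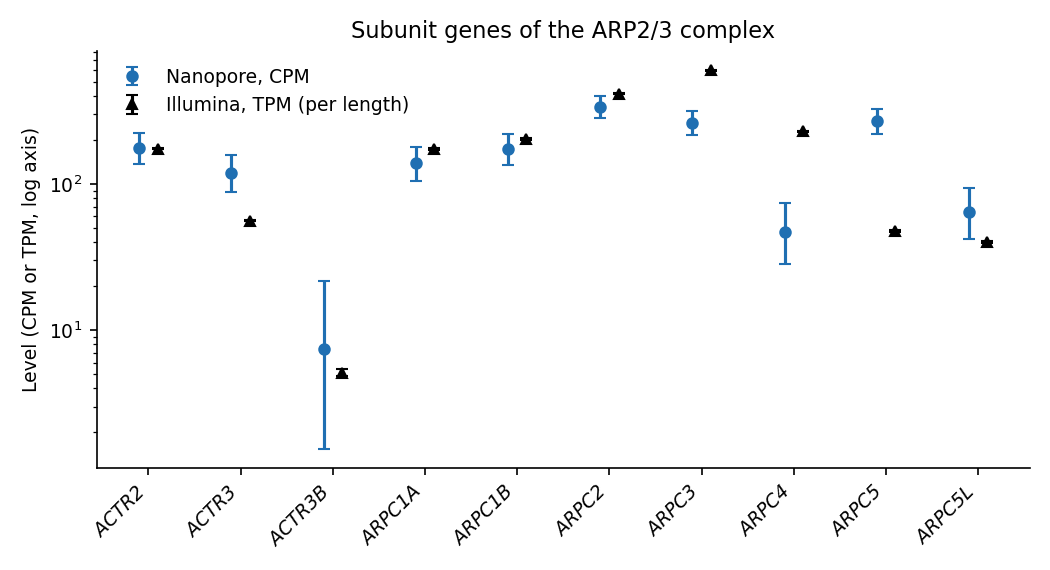
Levels of the 10 ARP2/3 subunit genes by Nanopore (circles, CPM) and by Illumina (triangles, TPM by canonical transcript length) on a log axis, with 95% exact Poisson intervals of the counts. ARPC2 is highest by Nanopore at 337.3 CPM and ARPC3 by Illumina at 599.9 TPM, and ARPC4 and ARPC5 change places between the libraries.

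Of the 18 activators and inhibitors of ARP2/3, 8 were at least 2-fold higher by Illumina (30.2% of all tested genes) and 0 by Nanopore (19.2%). Cortactin (CTTN), which stabilizes branches, was the lowest, with 11 Nanopore counts against 44363 by Illumina and a log2 ratio of -3.04 (-4.09 to -2.24). ABI2, a subunit of the WAVE complex that switches on ARP2/3, had 15 and 24121 counts (-1.73), and WIPF2, a partner of the WASP proteins, had 4 and 8623 (-2.07). WASF3 and CYFIP2 had 1 Nanopore count each, and their ratios of -2.14 and -1.34 have intervals of -7.84 to -0.05 and -6.96 to 0.82. Of the 18 tested genes for subunit and filament turnover, 5 were at least 2-fold higher by Illumina, a share near the 30.2% of all tested genes. They were GSN (gelsolin, 3 Nanopore counts, -1.80 with an interval of -4.21 to -0.39), SSH3 (a cofilin phosphatase, 3 counts, -1.38, interval -3.78 to 0.05), WDR1 (a helper of cofilin, -1.32), LIMK2 (a cofilin kinase, -1.19) and CAPZA1 (a capping protein, -1.09). TESK2, a kinase gene whose product acts on cofilin, was the 1 gene of this list past 2-fold by Nanopore on the CPM scale (19.2% of all tested genes). It had 8 and 869 counts (1.91, 0.91 to 3.12). TOE1, on the opposite strand, shares 91 exon bases with it and had 10 counts by Nanopore and 5622 by Illumina. Per canonical length, 2 of the 18 activators and inhibitors were at least 2-fold higher by Illumina and 7 by Nanopore. For the 18 turnover genes it was 1 and 7. The shares of all tested genes with a length were 11.1% and 34.8%.

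Of the 10 formin and Ena/VASP genes, which elongate unbranched filaments, 4 were at least 2-fold higher by Illumina (30.2% of all tested genes): DIAPH3 (-1.68), DIAPH1 (-1.66), VASP (-1.39) and FHOD1 (-1.33). Of the 6 tested myosin II genes, the heavy chains MYH10 (-1.95) and MYH9 (-1.48) were at least 2-fold higher by Illumina (30.2% of all tested genes). MYL6B, the neighbour of MYL6 described above, was 2-fold or more higher by Nanopore (19.2% of all tested genes), at 3.31 (3.14 to 3.51). MYH14 was listed at 0 in both libraries. The regulatory light chain genes MYL12A and MYL12B, with 158 and 166 Nanopore counts, had ratios of -0.10 and -0.40, and the antisense gene MYL12-AS1, which shares exon bases with both, had 149 Nanopore and 282 Illumina counts. These ratios are on the CPM scale. Per canonical length, 0 of the 10 formin and Ena/VASP genes were at least 2-fold higher by Illumina and 5 by Nanopore. For the 6 myosin II genes it was 0 and 1. The shares of all tested genes with a length were 11.1% and 34.8%. DIAPH1 moved to 0.22, MYH9 to 0.78 and MYH10 to 0.31. With mean length VASP was at -1.82, again past 2-fold.

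Actin itself and its filament binders gave a comparison with longer transcripts. The 9 genes for actins, tropomyosins and alpha-actinins had a median canonical length of 1919 bases, against 1096 for the 10 genes, and a median log2 CPM ratio of -0.89 against -0.21. Of these 9, 3 were at least 2-fold higher by Illumina on the CPM scale, a share near the 30.2% of all tested genes: ACTB, ACTN4 (-2.72) and TPM3 (-1.19). ACTB, cytoplasmic beta-actin, had 743 Nanopore and 872564 Illumina counts (-1.30, -1.41 to -1.20), and ACTG1, gamma-actin, 763 and 484892 (-0.42, -0.52 to -0.32). Per length the 9 genes had a median of -0.12, and that of the 10 genes was -0.49. No test of this difference between the lists was made.

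Each gene was also set beside its closest paralog. Among the 2 thymosins TMSB10 took 83.0% of Nanopore counts (80.8 to 84.9%) and 88.2% of Illumina TPM. PFN1 took 91.3% of PFN1 and PFN2 counts by Nanopore (88.5 to 93.5%) and 96.0% by TPM, and CFL1 took 95.4% of CFL1 and CFL2 counts (92.6 to 97.3%) and 98.8% by TPM. Against destrin (DSTN), the related filament-severing protein, CFL1 took 67.8% by Nanopore (63.4 to 71.9%) and 89.1% by TPM, which became 65.0% with union length. CAP1 took 91.7% of CAP1 and CAP2 counts by Nanopore (82.7 to 96.9%) and 95.5% by TPM. So in both libraries TMSB10, PFN1, CFL1 and CAP1 each held the larger share of its pair.

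For the ARP2/3 subunits with 2 forms, ARPC1B took 55.6% of ARPC1A and ARPC1B counts by Nanopore (46.4 to 64.4%), an interval that includes equal shares, and 53.9% by TPM. With union exonic length the Illumina share of ARPC1B was 29.2%, so which form leads by Illumina is not settled. ARPC5 took 80.6% of ARPC5 and ARPC5L counts by Nanopore (72.9 to 86.9%) and 54.3% by TPM, or 68.7% with mean length. MYL6 took 52.4% of MYL6 and MYL6B counts by Nanopore (47.9 to 56.8%), where the reads of the pair cannot be told apart, and 95.6% by TPM.

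**Figure D5:**
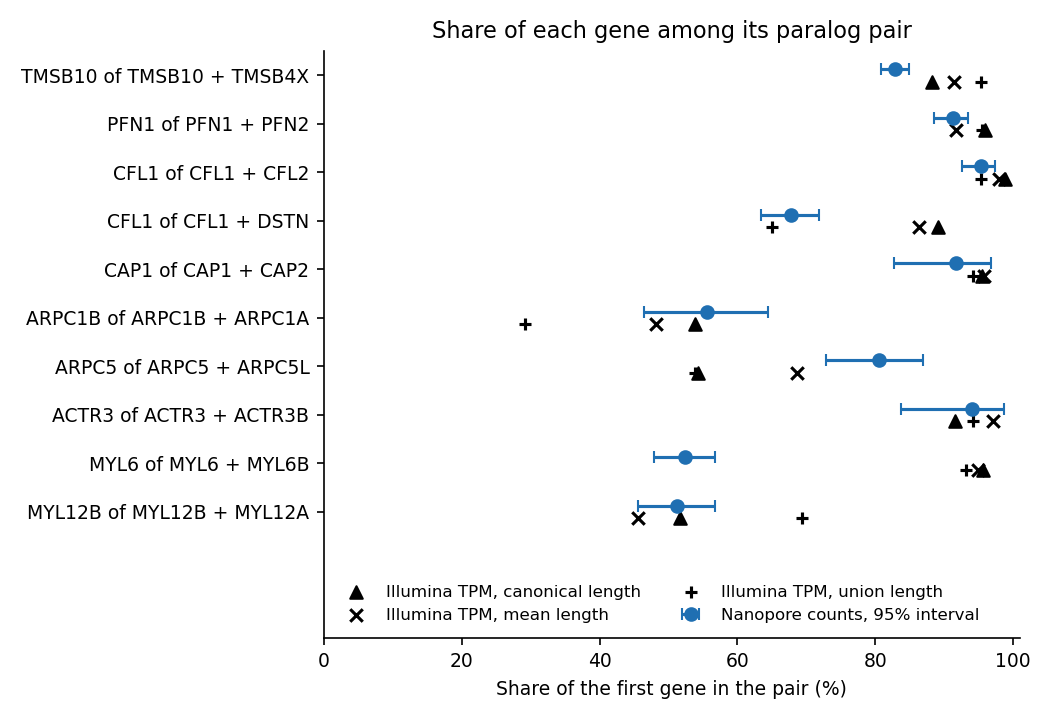
Share of the first gene in each of 10 paralog pairs, in percent, from Nanopore counts (circles, 95% Clopper-Pearson intervals) and from Illumina TPM by canonical, mean and union transcript length. For MYL6 with MYL6B the Nanopore share is 52.4% and the canonical Illumina share 95.6%. The canonical Illumina share also lies outside the Nanopore interval for both thymosins, both CFL1 pairs, PFN1 with PFN2 and ARPC5 with ARPC5L.

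For the 3 genes highest by Nanopore, the 2 protein-coding genes nearest over the CPM values of both libraries were found by the Euclidean distance of log2(CPM + 1). For TMSB10 these were NPM1 (1129 Nanopore and 657335 Illumina counts, distance 0.127) and RPLP0 (0.495). For PFN1 they were RPL18 (470 and 169734 counts, 0.0334) and RPL29 (0.0637), and for CFL1 the nearest was GSTP1 (0.145). The likeness is over 2 libraries of 1 RNA source only.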

How the data were processed

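Gene counts of 1 Nanopore direct RNA library and 1 Illumina mRNA library were used, grouped by their titles in the labels. The authors deposited whole-number counts per Ensembl gene, without normalization. Per the submitters' processing notes, minimap2 2.11-r797, HISAT2 2.1.0, featureCounts and the hg38 genome were used; options, annotation release and any correction of Nanopore reads with the Illumina reads are not given in the sources used here. These settings bear on genes that overlap or have copies.

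Names, positions and lengths came from GENCODE 44 on hg38, which held 58207 of the 58735 identifiers; the canonical transcript is the annotation's MANE or Ensembl choice. CPM, TPM and log2 ratios (pseudocount 1) were computed in Python 3.11.15 with scipy 1.17.1, ratio intervals from counts without the pseudocount, and TMM factors with edgeR 4.0.16. The filter for tested genes was an average of 5 CPM over both libraries. With 1 library each, no model across replicates could be fitted. Fold recovery and interval coverage were tested on simulated Poisson counts at the depths of these libraries. The simulation held no amplification, platform bias or double counting, so it cannot show how the intervals fare under them.

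Members and lists were chosen with earlier results of these data known. Named were all 10 genes, at most 5 pathway genes per list and direction past 2-fold, overlapping genes and pseudogenes with at least 10 counts, and the nearest genes (1 is not reported here); DSTN, ACTR3, ARPC1A, ARPC5L, the light chains, actins and paralogs were added for their role, and the copies whose sequences are printed were chosen after their counts were seen. Alternatives were other pseudocounts, filters, scalings and lengths, and adding copies.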

Additional observations from a re-analysis of the deposited data

How the results depend on the processing

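Of 90 recomputed log2 ratios of single genes, 63 stayed within the counting interval of the reported value, and CAP1, the 1 gene past 2-fold, kept its sign. PFN1 turned with all 3 lengths, and CFL1, ARPC1B and ARPC2 turned with union length. Without the 3 divisions by length, 58 of 60 stayed, and the largest change was 0.127. TMM and median-ratio scaling raised ratios by 0.088 and 0.13, and moved only TMSB10 beyond its interval. The 10-gene median was -0.49 with canonical and -0.62 with mean transcript length; per length it was -0.18 with union length. The 1 gene higher by Illumina became 0 with a pseudocount of 5 CPM, TMM, median-ratio scaling or totals without mitochondrial genes. Under these settings 24.6 to 28.4% of all tested genes were higher by Illumina. The number became 4 with canonical and 3 with mean length. Genes higher by Nanopore became 1 with canonical or mean length and 2 with union length. Per length, union length gave 1 gene higher by Illumina and 2 by Nanopore. Of the pathway genes, 4, 6 and 8 were higher by Illumina with canonical, union and mean length, and 21, 20 and 8 by Nanopore. Over all 12414 tested genes, including those without a length, the shares were 11.0, 12.7 and 17.8% by Illumina. By Nanopore they were 35.1, 33.6 and 25.5%. The same shares stand beside the counts of the 10 genes with each length. On the CPM scale, a filter at 20 CPM left 1 pathway gene higher by Nanopore (15.5% of all genes past that filter). The median over members free of overlaps, -0.20, was an alternative chosen after seeing the data. No paired analysis was possible because each method has 1 library. Nanopore depth limits genes under 7.44 CPM.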
